A study of Homo sapiens with 4 samples.

Results

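SOX genes encode transcription factors that bind DNA through a high-mobility-group (HMG) box. The 10 members described here are SOX2, SOX4, SOX5, SOX6, SOX7, SOX9, SOX11, SOX12, SOX13 and SOX15. The choice was by symbol, with earlier results of these data known, from 19 SOX genes named among the 48162 gene rows measured. The 10 members occupied 11 rows, because SOX7 was listed under 2 identifiers. RNA-seq had been run on MDA-MB-231, an established human line of breast cancer cells with mesenchymal features, after 24 h with MGH-CP1 or with vehicle control, with 2 libraries in each group. MGH-CP1 is a small molecule that blocks autopalmitoylation of the TEAD transcription factors, the DNA-binding partners of YAP and TAZ. The labels give its dose as 10 µM and the study's methods give the same figure in mM. No genotype or second agent distinguished the groups, and all libraries came from this single line. The labels do not say that the libraries of a group came from separate cultures, so p-values measure the spread between these libraries, which may be technical.

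SOX proteins fit the HMG box into the minor groove of DNA, bend it, and usually act together with a partner factor at the same site. They are sorted into groups by the similarity of that box: SoxB1 (SOX2) with pluripotency and neural progenitors, SoxC (SOX4, SOX11, SOX12) with embryonic progenitors and survival of immature cells, SoxD (SOX5, SOX6, SOX13), which lack a known activation domain, SoxE (SOX9) with cartilage and epithelial progenitors, SoxF (SOX7) with endothelium, and SoxG (SOX15). SOX4 and SOX9 are both known for roles in breast cancer cells, SOX4 in epithelial to mesenchymal transition and SOX9 in progenitor-like states. The question put to these members was whether the rise of SOX4 under MGH-CP1 was shared by the rest of the family. The study names SOX4 among the genes induced in these same data, so its rise was known beforehand.

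Values were FPKM, fragment numbers scaled to gene length and library total, and they gave back whole fragment numbers. Listed genes drew 25455533 and 25508824 fragments with vehicle control but 17997221 and 17577930 with MGH-CP1, so the treated libraries were the shallower ones. Of 11 markers for breast cancer lines, KRT8, KRT18, KRT19, VIM, FN1 and CD44 lay between 86.3 and 491 FPKM in all 4 libraries, ERBB2 and the epithelial gene EPCAM between 12.4 and 28.4 FPKM, and E-cadherin (CDH1) between 0.289 and 0.638 FPKM, while the hormone receptor genes ESR1 and PGR stayed at or below 0.0243 FPKM. Some moved with the treatment: KRT19 rose by 0.84 and FN1 by 0.82 on the log2 scale, and KRT18 fell by 0.35 and KRT8 by 0.18 (limma adjusted p from 1.98e-05 to 0.0138). Their part in the SOX results was not tested. Of 4 markers of other cell types, 3 were found and none reached a mean of 1 FPKM over the 4 libraries. CD3E was at 0 and PTPRC was at most 0.0321 FPKM. ALB had no fragment with vehicle control but 3 and 102 with MGH-CP1 (0.0737 and 2.56 FPKM). MGH-CP1 replicate 2 thus stood apart in carrying a trace of the liver gene ALB. The log2 fold changes of the 5 tested SOX members without this library are given beside the results. Mitochondrially encoded genes took 0.447% and 0.418% of fragments with vehicle control and 1.57% and 1.53% with MGH-CP1.

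Of the 10 members, 5 had a mean of at least 1 FPKM over the 4 libraries and entered the test across all genes (SOX4, SOX9, SOX12, SOX13 and SOX15), and 5 did not (SOX2, SOX5, SOX6, SOX7 and SOX11). SOX4, SOX12 and SOX13 rose with MGH-CP1. SOX9, the member with the highest level, and SOX15 did not pass the test. SOX4 rose most, from 4.48 ± 0.143 to 12.6 ± 0.173 FPKM (SD, n = 2 in each group), while SOX12 and SOX13 moved by less than 1 on the log2 scale. The 3 members called higher compare with 27.1% of the 12080 genes tested called higher, and the 0 members called lower with 23.8% called lower (50.8% in either direction; limma on log2(FPKM + 1), Benjamini-Hochberg adjusted p under 0.05). No tested member had a log2 fold change below 0, so the count of lower members was also 0 at an unadjusted p under 0.05, and it was 0 with limma voom on fragments. Both MGH-CP1 values lay above both vehicle control values for 4 of the 5 (SOX4, SOX9, SOX12 and SOX13), as they did for 39.8% of all genes tested, and none of the 5 had both values below (37.4% of all genes). With 5 members tested, these counts are a description. The 3 calls rest on variance shared between genes: with the variance of each gene alone, none of the 3 passed after adjustment (limma without moderation, adjusted p = 0.0531 for SOX4, 0.0697 for SOX12 and 0.103 for SOX13), although all 3 had an unadjusted p under 0.05. The median log2 fold change of the 5 was 0.46, against 0.01 over all genes tested. In bulk RNA, a higher level in every cell cannot be told apart from a larger share of cells that express the gene.

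**Figure D1:**
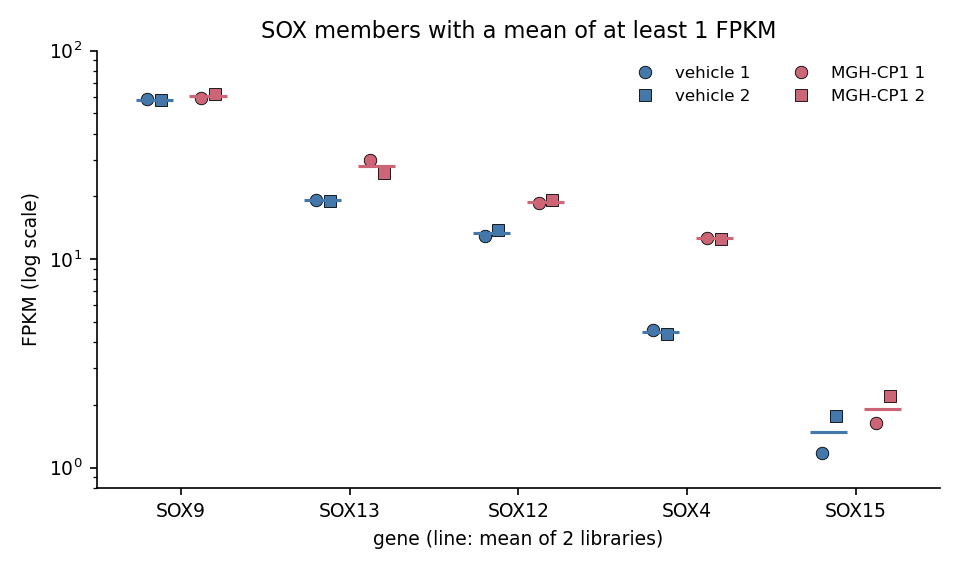
FPKM of each tested SOX member in each of the 4 libraries on a log axis, points for single libraries and lines for the group means. SOX4 moves from about 4.48 to 12.6 FPKM with MGH-CP1, and SOX12 and SOX13 move less. SOX9 has means of 58.4 FPKM with vehicle control and 60.6 FPKM with MGH-CP1, and the SOX15 points of the groups overlap.

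The 3 members that rose are shown by the 250 bases before their annotated start, because MGH-CP1 acts on TEAD factors and these stretches let the reader see which start regions hold the TEAD core motif GGAATG. Sequences are RefSeq's, on GRCh38.p14, read on the plus strand from 5′ to 3′, at chr6:21593501-21593750 for SOX4, chr20:325302-325551 for SOX12 and chr1:204072865-204073114 for SOX13. Capitals mark GGAATG.
SOX4: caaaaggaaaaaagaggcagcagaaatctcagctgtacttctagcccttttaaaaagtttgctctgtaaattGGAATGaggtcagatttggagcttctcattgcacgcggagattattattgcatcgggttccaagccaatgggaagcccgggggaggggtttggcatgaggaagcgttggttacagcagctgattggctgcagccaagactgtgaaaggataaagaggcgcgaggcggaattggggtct
SOX12: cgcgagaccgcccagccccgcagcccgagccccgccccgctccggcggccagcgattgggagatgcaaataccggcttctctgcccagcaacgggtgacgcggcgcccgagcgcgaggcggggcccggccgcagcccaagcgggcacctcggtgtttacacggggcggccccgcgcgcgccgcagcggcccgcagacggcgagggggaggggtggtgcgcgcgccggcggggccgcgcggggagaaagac
SOX13: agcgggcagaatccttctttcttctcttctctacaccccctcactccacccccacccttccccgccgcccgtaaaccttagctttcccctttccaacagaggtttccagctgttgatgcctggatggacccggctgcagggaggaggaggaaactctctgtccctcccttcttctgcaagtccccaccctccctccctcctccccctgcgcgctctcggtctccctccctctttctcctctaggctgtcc
The SOX4 stretch held 1 GGAATG, on the plus strand, 178 bases before the start, and those of SOX12 and SOX13 held none on either strand. Over the 300 bases from 250 before to 50 after the start, 14.0% of 35116 RefSeq windows held GGAATG or its reverse complement CATTCC. The SOX4 window had 49.3% GC and 8 CpG sites, SOX13 62.7% and 15, and SOX12 80.3% and 54, beside medians of 58.7% and 14 over all windows. Windows were found for 6 of the 10 members (SOX2, SOX4, SOX5, SOX6, SOX12 and SOX13), and SOX4 alone among these 6 held GGAATG. None was found for SOX9 or SOX15, the tested members not called. The motif could therefore not be compared between tested members that rose and those that did not. The SOX-type motif ACAAT (27.4% of all windows, either strand) was found in the windows of SOX5 and SOX6 and not in those of SOX4, SOX12 or SOX13. The related motif ACAAAG (16.1% of all windows) was found in the SOX2 window and in 1 of the 5 SOX6 windows. A match to these letters is not a measured binding site, and its part in the rise of SOX4 was not tested.

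The SoxC group held the largest and one of the smaller called rises. SOX4 (ENSG00000124766), whose protein is a strong activator, is listed on the plus strand of chromosome 6 at 21593972 to 21598847 of hg19. Its counted length of 4876 bases equals that whole span. It measured 4.58 and 4.38 FPKM with vehicle control and 12.7 and 12.5 FPKM with MGH-CP1, from 569, 545, 1115 and 1068 fragments. The groups were far apart, and the treated libraries held more SOX4 fragments in number despite their lower totals. The log2 fold change was 1.31 ± 0.07 (SE; 95% interval 1.15 to 1.47; limma adjusted p = 1.77e-05), and 0.588% of all genes tested had a larger one. The ratio of mean FPKM was 2.81, above the fold that the log2(FPKM + 1) scale gives, since the added 1 shrinks the change of a gene at this level. Without MGH-CP1 replicate 2 the log2 fold change was 1.32.

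SOX12 (ENSG00000177732), a weaker activator of the same group that often overlaps SOX4 in tissue, spans 306207 to 310865 on the plus strand of chromosome 20 of hg19. It measured 13.0 and 13.8 FPKM with vehicle control and 18.5 and 19.1 FPKM with MGH-CP1. The fragments behind these values, 1529, 1632, 1542 and 1556, were nearly level across the libraries, against lower totals in the treated ones. Its log2 fold change was 0.46 ± 0.06 (SE; 95% interval 0.32 to 0.60; limma adjusted p = 0.000546). Without MGH-CP1 replicate 2 it was 0.44. SOX11 (ENSG00000176887), the third SoxC gene and a factor of developing neurons, had 0 fragments in all 4 libraries. A count of 0 allows up to 3 fragments per library, which is 0.0135 FPKM with vehicle control and up to 0.0196 FPKM with MGH-CP1.

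In the SoxD group, SOX13 (ENSG00000143842), known from T-cell lineage choice and binding to TCF factors, was the member that rose. The gene spans 204042243 to 204096863 on the plus strand of chromosome 1 of hg19. It measured 19.3 and 19.1 FPKM with vehicle control and 29.8 and 25.9 FPKM with MGH-CP1, from 1755, 1744, 1921 and 1630 fragments. Both treated values lay above both controls, but they differed from each other by more than those of SOX4 or SOX12 did. The log2 fold change was 0.51 ± 0.07 (SE; 95% interval 0.35 to 0.68; limma adjusted p = 0.000704), and it was 0.61 without MGH-CP1 replicate 2. The other SoxD genes, SOX5 and SOX6, act with SOX9 in cartilage, and both were under the filter. SOX6 had 21, 12, 28 and 10 fragments, and the libraries of the groups overlapped. Its ratio of summed fragments per library total was 1.65 (exact 95% interval 1.01 to 2.71, counting error only), an interval that leaves out the spread between replicates. Part of SOX6 shares 126460 bases with C11orf58 on the opposite strand, which had 5220, 5117, 3848 and 3385 fragments, and whether counting used strand is not stated. SOX5 had 7, 0, 1 and 1 fragments, a ratio of 0.409 (0.0415 to 2.15). When every gene above 0 was tested, neither SOX6 (limma adjusted p = 0.587) nor SOX5 (limma adjusted p = 0.775) was called.

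SOX9 (ENSG00000125398), the SoxE gene, on the plus strand of chromosome 17 at 70117161 to 70122561 of hg19, had the highest level of all members. It measured 58.5 and 58.2 FPKM with vehicle control and 59.2 and 62.0 FPKM with MGH-CP1, from 5863, 5840, 4191 and 4289 fragments. Both treated values lay above both controls, by a margin smaller than the gap between the treated libraries themselves. The log2 fold change was 0.05 ± 0.05 (SE), and its 95% interval of -0.06 to 0.17 (limma adjusted p = 0.394) leaves out a rise of the size of SOX4, SOX12 or SOX13. It was 0.02 without MGH-CP1 replicate 2 and 0.09 without MGH-CP1 replicate 1. Its sign is not settled, since it turned to -0.00084 when libraries were scaled by the median ratio of their genes.

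SOX15 (ENSG00000129194), the SoxG gene, known from muscle progenitors and placenta, lies on the minus strand of chromosome 17 at 7491496 to 7493488 of hg19. It measured 1.18 and 1.77 FPKM with vehicle control and 1.63 and 2.20 FPKM with MGH-CP1, from 42, 63, 41 and 54 fragments. The groups overlapped, and few fragments stood behind each value. The ratio of mean FPKM was 1.30, beside 1.40 for SOX12 and 1.04 for SOX9. The log2 fold change was 0.24 ± 0.16 (SE; 95% interval -0.12 to 0.60; limma adjusted p = 0.230), an interval wide enough to hold the values of SOX12 and SOX13 but not that of SOX4. Single libraries moved it: it was 0.07 without vehicle control replicate 1, 0.41 without vehicle control replicate 2, 0.38 without MGH-CP1 replicate 1 and 0.10 without MGH-CP1 replicate 2. All of SOX15 lies within the span of MPDU1 on the opposite strand, which had 749 to 1311 fragments.

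The remaining members were close to the floor of detection. SOX2 (ENSG00000181449), the SoxB1 pluripotency factor, had 4, 3, 0 and 5 fragments, a ratio of 1.02 (exact 95% interval 0.256 to 3.75). SOX7, the SoxF gene of endothelial cells, had 11, 1, 7 and 0 fragments, a ratio of 0.836 (0.279 to 2.30), and its second row (ENSG00000258724) was at 0 in every library. SOX7 overlaps PINX1 on the same strand, which had 59 to 124 fragments. A difference of either gene was not detectable at this depth, and neither was called when every gene above 0 was tested (limma adjusted p = 0.995 for SOX2 and 0.904 for SOX7). The highest value of any member under the filter was 0.174 FPKM, from at most 28 fragments in a library. The 9 other SOX genes in the table were also below a mean of 1 FPKM: SOX1, SOX8, SOX14 and SOX17 were at 0 in every library, and SOX3, SOX10, SOX18, SOX21 and SOX30 had at most 20 fragments in any of them. Of the 19 SOX genes, 5 thus reached a mean of 1 FPKM in these cells.

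**Figure D2:**
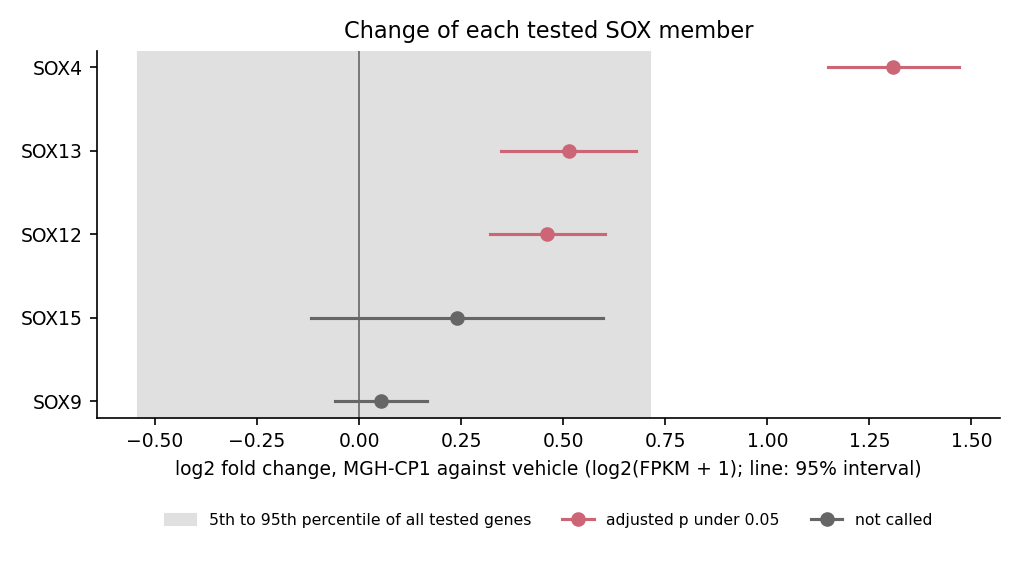
Log2 fold change of each tested SOX member, MGH-CP1 against vehicle control on log2(FPKM + 1), with lines for 95% intervals of the limma fit and a grey band from the 5th to the 95th percentile of all genes tested (-0.54 to 0.71). SOX4 lies outside the band at 1.31, and its interval starts above the ends of the other 4.

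SOX4 was next set against each other tested member within the same library, which reduces any scale shared by the genes of a library. The added 1 keeps that scale from cancelling fully, most of all for low genes. SOX4 minus SOX12, both SoxC, was -1.32 and -1.46 on the log2(FPKM + 1) scale with vehicle control and -0.51 and -0.58 with MGH-CP1, a change of 0.85 (0.74 to 0.95 over the 4 pairs of a treated and a control library). SOX4 minus SOX13 was -1.86 and -1.90 against -1.17 and -0.999, a change of 0.80 (0.69 to 0.90). SOX4 minus SOX9 was -3.41 and -3.46 against -2.13 and -2.23, a change of 1.26 (1.19 to 1.32). The SOX4 level thus moved towards that of each of these genes in both treated libraries. SOX4 minus SOX15 was 1.36 and 0.96 against 2.38 and 2.07, a change of 1.07 (0.72 to 1.42). For all 4 members compared, the groups of libraries were apart in the same direction. The exact permutation test (two-sided) gave p = 0.333, also after adjustment over the 4, which is the smallest value that 2 libraries against 2 can give, so this test cannot pass a threshold of 0.05. In the limma fit, the 95% interval of SOX4 (1.15 to 1.47) began above the highest upper bound of the other 4 (0.68). These intervals rest on variance shared between genes. With the variance of each gene alone, the SE was 0.030 for SOX4 and 0.22 for SOX15. The intervals of SOX4 and SOX15 were then no longer apart. The rise was therefore shared in direction by SOX12 and SOX13, at a smaller size, and was not detected in SOX9 or SOX15. For SOX15 the limma interval (-0.12 to 0.60) was wide enough to hold the values of SOX12 and SOX13.

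**Figure D3:**
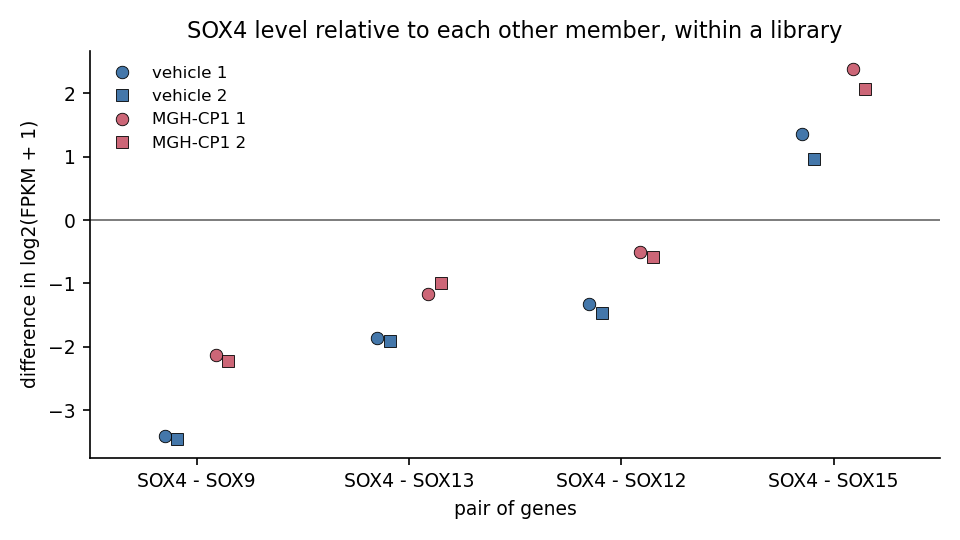
SOX4 minus each other tested member within a library, on log2(FPKM + 1), with a point for each library. For all 4 members the MGH-CP1 points lie above the vehicle control points, by 0.80 for SOX13, 0.85 for SOX12, 1.07 for SOX15 and 1.26 for SOX9.

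The order of the levels was the same in both groups. SOX9 was highest, then SOX13, SOX12, SOX4 and SOX15, and no neighbours in this order overlapped in their FPKM over the libraries of a group. Because FPKM is per length, levels can be added over genes. The 10 members summed to 96.9 and 97.4 FPKM with vehicle control and to 122.2 and 121.9 FPKM with MGH-CP1, a difference of 24.9 FPKM (exact permutation p = 0.333, two-sided, the smallest possible). SOX13 added 8.68 FPKM to this gain, SOX4 8.10, SOX12 5.42, SOX9 2.24 and SOX15 0.44. The gains of SOX4 and SOX13 could not be ranked: without MGH-CP1 replicate 1 they were 7.98 and 6.73 FPKM, and without MGH-CP1 replicate 2 they were 8.22 and 10.6 FPKM. Without SOX4 the sum went from 92.3 and 93.0 FPKM to 109.5 and 109.4 FPKM, with the groups still apart. The share of SOX4 in the sum was 4.73% and 4.50% with vehicle control and 10.4% and 10.2% with MGH-CP1, a difference of 5.70 percentage points. The SOX9 share was 60.4% and 59.8% with vehicle control and 48.4% and 50.9% with MGH-CP1, although SOX9 itself was not called.

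**Figure D4:**
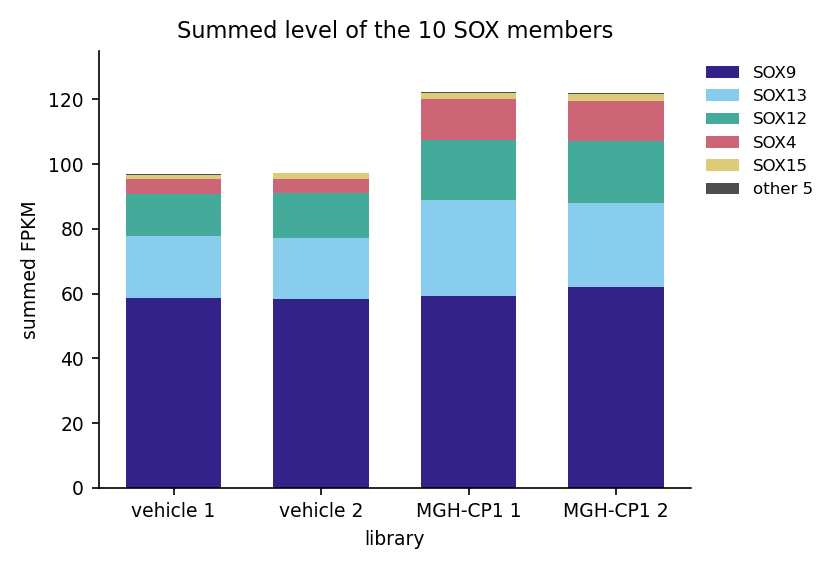
Summed FPKM of the SOX members in each library, stacked by member from 0. The MGH-CP1 bars reach 122.2 and 121.9 FPKM against 96.9 and 97.4 FPKM, with SOX9 the largest piece in all 4 and the SOX4 piece growing from under 5% to over 10% of the bar.

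Genes next to the members gave no common direction. For SOX4 the nearest tested genes were CDKAL1, 361.3 kb away, which fell by 0.43 on the log2 scale (limma adjusted p = 8.91e-04), and MRS2, 2804.3 kb away, which fell by 0.22 (limma adjusted p = 0.0198). SOX4 thus rose between neighbours that fell. Next to SOX12, C20orf96 (34.8 kb) rose by 1.04 (limma adjusted p = 1.04e-04), more than SOX12 itself, and NRSN2 (16.7 kb) rose by 0.23 (limma adjusted p = 0.00776). Next to SOX13, SNRPE (202.6 kb), a spliceosome protein gene, fell by 0.28 (limma adjusted p = 0.0349), and ETNK2 (3.3 kb) was not called (log2 fold change 0.19, limma adjusted p = 0.202). Neither neighbour of SOX9 was called: PRKAR1A (3569.7 kb) was at 0.08 and LINC00511 (196.7 kb) at -0.15. FXR2, 1.1 kb from SOX15, was not called at 0.13, and AC113189.5, 4.1 kb away, rose by 0.45 (limma adjusted p = 0.0248). SOX4 and SOX13 overlapped no other listed gene. SOX9 lay wholly within AC005152.2 (14 to 26 fragments) and SOX12 within RP5-1103G7.4 (37 to 69 fragments), both on the opposite strand and both far below the fragments of the SOX gene. SOX2 lay within SOX2-OT, which had 0, 0, 3 and 3 fragments.

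HMG-box genes outside the SOX family were called in both directions. Of 24 such genes, 18 were tested, of which 5 rose, 8 fell and 5 did not pass, beside 27.1% higher and 23.8% lower over all genes tested, with a median log2 fold change of 0.01, like that of all genes. HBP1, a repressor that restrains the cell cycle, rose from 12.2 ± 0.656 to 18.9 ± 0.244 FPKM (SD, n = 2 in each group; log2 fold change 0.59, limma adjusted p = 1.92e-04). TOX2 rose by 0.45 and HMGXB3 by 0.34 on the log2 scale. The largest falls were of HMGB2, a chromatin architecture protein abundant in dividing cells, which went from 132 ± 5.78 to 75.4 ± 5.44 FPKM (SD, n = 2; log2 fold change -0.81, limma adjusted p = 4.93e-05), SSRP1, a subunit of the histone chaperone FACT, at -0.60, and HMGB3 at -0.45. The share called higher was near that of all genes, and the share called lower was above that of all genes. With 18 genes tested, these counts are a description.

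Of 19 known partners and targets of SOX factors, 9 were tested, of which 2 rose, 3 fell and 4 did not pass, with a median log2 fold change of -0.04. With 27.1% higher and 23.8% lower over all genes, counts this small are not a result about the list. CTNNB1, encoding beta-catenin, with which several SOX proteins interact, rose by 0.23 (limma adjusted p = 0.00333), and COL9A2, a cartilage collagen gene under SOX9, rose by 0.37 (limma adjusted p = 0.0395) from 2.20 FPKM. EZH2, a histone methyltransferase gene known as a SOX4 target in breast cancer cells, measured 30.5 and 30.0 FPKM with vehicle control and 15.9 and 16.7 FPKM with MGH-CP1. The groups were far apart, and EZH2 fell by 0.85 on the log2 scale (limma adjusted p = 2.79e-05). DICER1, another known SOX4 target, fell by 0.38 (limma adjusted p = 0.00229), and POU2F1, a POU-domain factor, fell by 0.42 (limma adjusted p = 0.00738). The 4 that did not pass were SMAD2 at -0.08, SMAD3 at 0.06, SEMA3C at -0.04 and TEAD2 at 0.20 (limma adjusted p from 0.136 to 0.555). What part SOX4 has in any of these levels was not tested.

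**Figure D5:**
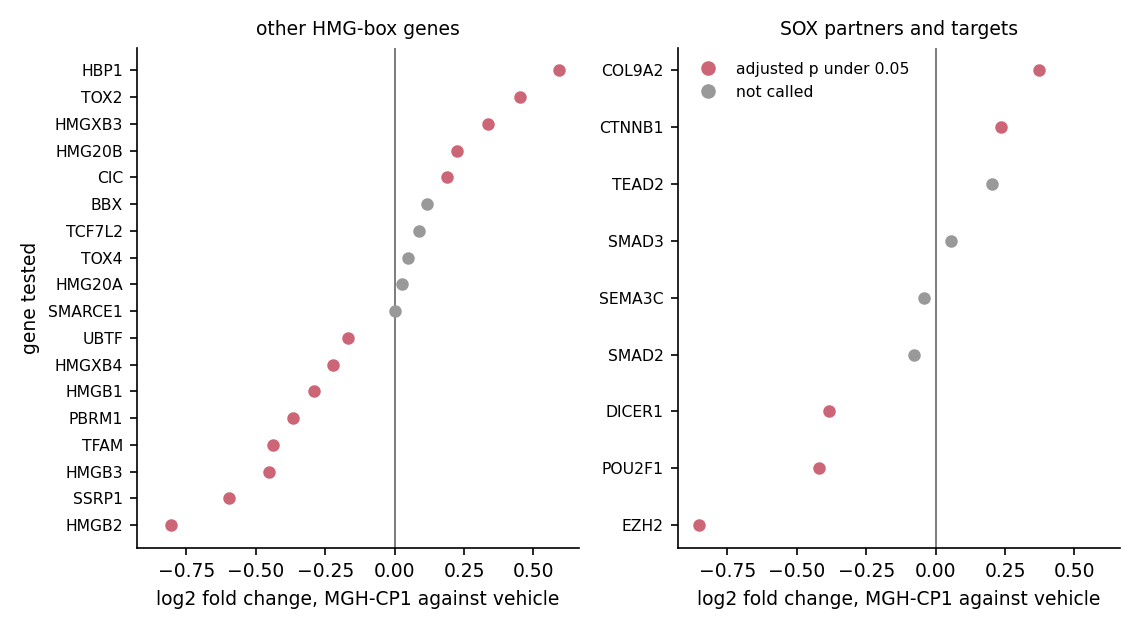
Log2 fold changes, MGH-CP1 against vehicle control, of the tested genes among the other HMG-box genes (left) and among SOX partners and targets (right), coloured by the limma call. Points lie on both sides of 0 in both panels, from HBP1 at 0.59 to HMGB2 at -0.81 and from COL9A2 at 0.37 to EZH2 at -0.85.

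The genes most like SOX4 over the 4 libraries, by the root mean square difference of log2(FPKM + 1) after centring each gene on its own mean, were MYL5 (0.0108), VSTM2L (0.0347), POLD4 (0.0379), CALCOCO1 (0.0379) and OSBPL7 (0.0391). Their log2 fold changes ran from 1.24 for POLD4 to 1.36 for CALCOCO1. No other tested SOX gene was among them, which follows from the smaller log2 fold changes given above. With 4 libraries, this likeness is mostly that of the change between the groups.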

How the data were processed

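Poly(A) RNA of MDA-MB-231 cells was sequenced from 2 vehicle control and 2 MGH-CP1 libraries, grouped by their titles. The authors deposited FPKM values for 48162 gene rows with symbol, coordinates and length. The submitters' processing notes name CASAVA 1.8, STAR and the build hg19. The counting tool, the annotation and the use of strand are not given in the sources used here. FPKM times length gave whole fragments (within 0.01) for every value above 0, which supplied the fragment numbers.

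Genes with a mean of at least 1 FPKM (12080) were taken to log2(FPKM + 1) and fitted in R 4.3.3 by limma 3.58.1 (lmFit, then eBayes with a trend, two-sided, Benjamini-Hochberg over all genes tested, threshold 0.05). The added 1 understates changes of low genes. Single values were compared with exact permutation tests over libraries. Intervals for fragment ratios and the floor of 3 fragments cover counting error only, and fragments are not independent molecules. The script was tested on simulated data.

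All members and other SOX genes are named. From the related lists, up to 3 called genes with the largest rise and 3 with the largest fall are named, with the nearest tested neighbours, genes overlapping a member, and the 5 genes most like SOX4. The SOX partners and targets tested but not called are also named. Members and lists were chosen with earlier results of these data known. Alternatives covered the pseudocount, the filter, scaling, variance model, recovered fragments with voom, a replicate block and leaving out each library. Leaving out libraries for the FPKM gains of SOX4 and SOX13 was chosen after seeing the data. RefSeq promoter windows (GRCh38.p14) were matched by symbol, with no coordinates carried over from hg19.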

Additional observations from a re-analysis of the deposited data

How the results depend on the processing

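The calls of SOX4, SOX12 and SOX13 rest on sharing variance between genes. With the variance of each gene alone, 9 of all genes were called higher and 4 lower (4947 at an unadjusted p under 0.05), and 0 SOX members were called higher (3 at an unadjusted p under 0.05): SOX4 stood at 1.31 (adjusted p = 0.0531), SOX12 at 0.46 (adjusted p = 0.0697) and SOX13 at 0.51 (adjusted p = 0.103), by limma without moderation. With no filter, 24878 genes were tested instead of 12080, and 2280 were called higher and 1844 lower, instead of 3273 and 2869. SOX9 turned to -0.00084 under median-ratio scaling (limma adjusted p = 0.990). In the other settings 3 members stayed called higher, with SOX4 from 1.26 to 1.49, SOX12 from 0.41 to 0.49 and SOX13 from 0.46 to 0.54.

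Leaving out each library in turn gave 2512 to 2991 genes higher, 2129 to 2549 lower and 3 members higher each time, with SOX4 at 1.28 to 1.34, SOX12 at 0.42 to 0.50, SOX13 at 0.41 to 0.61, SOX15 at 0.07 to 0.41 and SOX9 at 0.02 to 0.09. The lone library of a group was then assumed to vary like those of the other. Over the libraries left out, the change of SOX4 minus another member ran from 0.71 to 1.30. The summed gain ran from 24.7 to 25.2 FPKM and the gain in the SOX4 share from 5.58 to 5.81 percentage points. Median-ratio scaling moved the summed gain further, to 20.7 FPKM from 24.9 FPKM. Setting the pseudocount to 0.1 gave changes of 0.94 against SOX13, 0.98 against SOX12, 1.10 against SOX15 and 1.42 against SOX9. With the replicate block, 3466 genes were higher, 3052 lower and 3 members higher, and SOX4 stayed at 1.31. The replicate numbers were shared only as numbers (the replicate differences of the groups correlated at r = 0.0777 across 12080 genes, which are not independent replicates). Depth limits SOX2, SOX5, SOX6, SOX7, SOX11 and SOX15.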

Other observations

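MGH-CP1 replicate 2 held 255 fragments over 10 liver genes, a list written after ALB had been seen, against 3 and 8 in the vehicle control libraries and 15 in MGH-CP1 replicate 1. All 10 were highest in this library, among them APOB with 0, 1, 0 and 38 fragments, AHSG with 0, 0, 1 and 32 and AFP with 0, 1, 0 and 30. These fragments were 0.00145% of the library. The SOX members without this library had log2 fold changes of 1.32 for SOX4, 0.61 for SOX13, 0.44 for SOX12, 0.10 for SOX15 and 0.02 for SOX9.

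PIK3C2B, a class II phosphoinositide 3-kinase gene, is named by the study beside SOX4 as induced by MGH-CP1, also by qPCR in several lines. The gene was picked here after its values were seen. It measured 1.90 and 1.84 FPKM with vehicle control and 4.24 and 3.90 FPKM with MGH-CP1 (log2 fold change 0.82, limma adjusted p = 2.99e-04). It lies 294.9 kb beyond SOX13 on chromosome 1, with 4 tested genes between them. A link between the changes of PIK3C2B and SOX13 was not tested.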
